A study of Mus musculus with 8 samples.

Results

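Guanylate-binding proteins are large GTPases made in many cell types after exposure to interferons. Here the 10 mouse genes Gbp2, Gbp2b, Gbp3, Gbp4, Gbp5, Gbp6, Gbp7, Gbp8, Gbp9 and Gbp10 were followed in cultured hepatocytes after knockdown of Casp8, the gene of the protease caspase-8. They are 10 of 34945 named genes in the deposited table and were taken from it by symbol. They were chosen by their measured values in this same comparison, siCasp8 against Scr, so the difference between the groups is given for them as a description. Counts of these genes that were called in the fit over all genes are printed for reading beside the share of all genes, and support nothing.

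Poly-A RNA was sequenced from 8 cultures of AML12, an established line derived from the liver of a mouse that carries a human TGF-alpha transgene. The control group (Scr) consisted of 4 libraries from cells given a scrambled siRNA. The other group (siCasp8) consisted of 4 libraries from cells given Casp8 siRNAs. Both groups were labelled as the same line, both received 40 nM siRNA with a lipid reagent, and both were collected after 48 h. No interferon was named in the labels for either group, and there was no group without siRNA.

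As background, interferon-gamma binds a receptor on the cell surface, the receptor's Janus kinases activate transcription factors of the STAT family, and these together with IRF1 switch on the Gbp genes. Type I interferons reach many of the same genes through a complex of STAT proteins and IRF9 that binds the interferon-stimulated response element. The proteins bind GTP, assemble on the membranes of vacuoles that hold bacteria or parasites and on bacteria in the cytosol, and promote rupture of the vacuole, autophagy and activation of inflammasomes. Gbp2, Gbp2b (formerly Gbp1) and Gbp5 end in a motif to which a lipid is attached, which holds them on membranes.

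The knockdown was visible in every library. Casp8 (chromosome 1, 58795374 to 58847503, plus strand, GRCm38) stood at 3936, 3995, 4134 and 3825 normalized units in Scr replicates 1 to 4 and at 1374, 1431, 1627 and 1490 in siCasp8 replicates 1 to 4. The groups did not overlap, and the siCasp8 mean was 37.3% of the Scr mean. The difference was -1.43 on the log2(value + 1) scale (SE 0.0525, adjusted p = 5.94e-09 in limma over all tested genes). Estimated depth was 30.7 to 51.8 M reads per Scr library and 50.5 to 57.1 M reads per siCasp8 library, so the control group was sequenced less deeply. Of 14154 genes tested, 40.2% were called at an adjusted p under 0.05, with 2739 higher and 2950 lower in siCasp8. Under an upper-quartile rescaling, which moved the median difference of all genes to 0.10, the split was 4475 higher and 1665 lower.

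The genes lie in 2 clusters. On chromosome 3 (142493978 to 142638008, GRCm38, 144 kb) Gbp5, Gbp7, Gbp3, Gbp2b and Gbp2 follow one another on the plus strand with no other protein-coding gene between them. On chromosome 5 (105014150 to 105293698, 279.5 kb) Gbp8, Gbp9, Gbp4, Gbp10 and Gbp6 lie on the minus strand, and the predicted gene Gm43302 lies among them. The annotated spans of Gbp8, Gbp9 and Gbp4 overlap on that strand, by 61910 bases for Gbp8 and Gbp9, so reads from shared stretches are divided between genes by the estimator.

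Upstream sequence is shown only for the chromosome 3 genes, because the RefSeq promoter table (GRCm38.p6) had no row for the other members. It held 6 windows for the 5 chromosome 3 genes, Gbp3 having 2 start sites. The 250 bases before the start are given 5′ to 3′ on the plus strand. Capitals mark the core of the interferon-stimulated response element, searched as TTTC, any 2 bases, TTTC on either strand, and the STAT site TTCNNNGAA, which reads the same on both strands.

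Gbp5, chr3:142496684-142496933: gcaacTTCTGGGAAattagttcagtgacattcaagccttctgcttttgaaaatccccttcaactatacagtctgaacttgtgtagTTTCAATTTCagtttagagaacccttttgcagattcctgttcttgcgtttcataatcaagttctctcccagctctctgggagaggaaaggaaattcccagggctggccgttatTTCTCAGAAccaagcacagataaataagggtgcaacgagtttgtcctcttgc
Gbp7, chr3:142530086-142530335: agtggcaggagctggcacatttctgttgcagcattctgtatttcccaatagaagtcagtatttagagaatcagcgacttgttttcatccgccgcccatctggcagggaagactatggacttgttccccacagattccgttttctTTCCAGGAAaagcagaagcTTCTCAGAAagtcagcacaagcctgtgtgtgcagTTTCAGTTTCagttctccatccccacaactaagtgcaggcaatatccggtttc
Gbp3, chr3:142559794-142560043: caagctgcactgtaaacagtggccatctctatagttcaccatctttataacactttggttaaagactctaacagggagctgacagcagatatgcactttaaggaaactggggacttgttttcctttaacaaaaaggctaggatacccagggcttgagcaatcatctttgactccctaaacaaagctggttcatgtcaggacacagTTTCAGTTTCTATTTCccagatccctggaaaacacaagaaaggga
Gbp2b, chr3:142594597-142594846: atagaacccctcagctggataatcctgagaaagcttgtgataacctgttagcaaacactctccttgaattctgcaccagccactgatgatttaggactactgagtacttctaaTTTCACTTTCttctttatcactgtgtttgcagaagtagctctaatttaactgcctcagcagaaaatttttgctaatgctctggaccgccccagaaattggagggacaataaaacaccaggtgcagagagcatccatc
Gbp2, chr3:142620413-142620662: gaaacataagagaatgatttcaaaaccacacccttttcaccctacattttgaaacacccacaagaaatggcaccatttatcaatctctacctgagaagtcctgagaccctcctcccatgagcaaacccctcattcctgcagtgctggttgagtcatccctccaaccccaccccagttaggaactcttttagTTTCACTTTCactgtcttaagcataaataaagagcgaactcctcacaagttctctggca

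The response element core occurred in all 5 genes and in 5 of the 6 windows, against 3.44% of 32851 RefSeq promoter windows of the same length (250 bases before and 50 after the start). It began 59 bases before the start of Gbp2, 53 bases before that of Gbp7, 137 before that of Gbp2b and 165 before that of Gbp5. In Gbp3 it occurred at 45 and again at 39 bases before the start, as 2 matches that overlap and make a run of 3 TTTC blocks. Gbp2 and Gbp2b carried the same letters, TTTCACTTTC, and Gbp7 and Gbp3 the same letters, TTTCAGTTTC. The STAT site with 3 spacer bases occurred in Gbp5 and Gbp7, 2 times in each, against 8.30% of all windows. A STAT site with 4 spacer bases occurred only in the second window of Gbp3 (142560106 to 142560355), which lacked the response element core, against 6.95% of all windows. The promoter table had no row for Gbp4, Gbp6, Gbp8, Gbp9 and Gbp10, so the motifs of members called and not called could not be compared. These matches are letters in a window, and binding was not measured.

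Of the 10 genes, 9 passed the filter of a mean of at least 10 and 6 of them were called higher in siCasp8 (Gbp2, Gbp3, Gbp5, Gbp6, Gbp7 and Gbp8), none lower. Over all tested genes 19.4% were called higher and 20.8% lower. The same 6 were the ones in which every siCasp8 library lay above every Scr library, which held for 18.0% of all tested genes. Because this comparison chose the genes, nothing is read from those counts. The median difference of the 9 was 0.60 on the log2(value + 1) scale, beside 0.0025 over all tested genes. In RNA from whole cultures, fewer cells of a kind and less RNA per cell cannot be told apart.

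**Figure D1:**
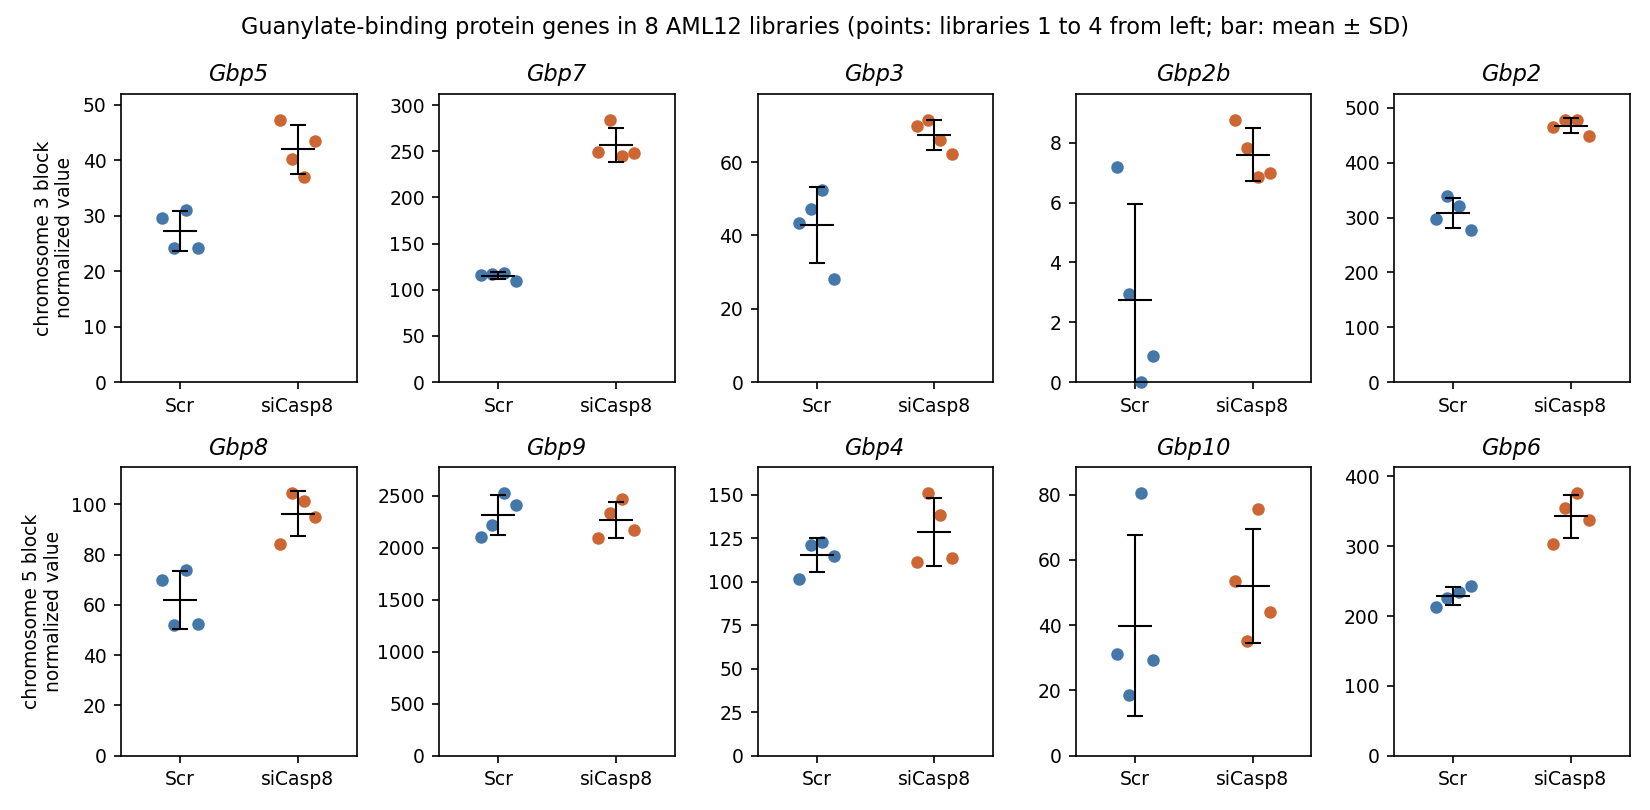
Normalized value (vertical axis, deposited units, each panel with its own scale from 0) of the 10 genes in the 4 Scr and 4 siCasp8 libraries, with the mean and SD of each group as a bar; the lower end of the Scr bar of Gbp2b lies below the axis. The siCasp8 points lie above all Scr points for Gbp5, Gbp7, Gbp3, Gbp2, Gbp8 and Gbp6 and overlap with them for Gbp2b, Gbp9, Gbp4 and Gbp10.

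Gbp7 showed the largest difference of the 9. Its protein has been tied in mice to autophagy and oxidative defence against bacteria. It was measured at 116, 117, 118 and 109.8 normalized units in Scr replicates 1 to 4 and at 249.1, 284, 244 and 248.6 in siCasp8 replicates 1 to 4. The Scr libraries were tightly grouped, and the lowest siCasp8 library was far above them. The means were 115 ± 3.80 and 257 ± 18.5 (SD, n = 4 each), a ratio of 2.22 and a difference of 1.14 (SE 0.0951) on the log2(value + 1) scale.

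Gbp2, one of the members that attach to membranes through a lipid, was also separated between the groups. It stood at 298, 339, 320.2 and 277 in Scr and at 465, 478, 478 and 449 in siCasp8. All siCasp8 libraries lay above the highest Scr library, Scr replicate 2. The means were 308 ± 27.1 and 467 ± 13.8 (SD, n = 4 each), a ratio of 1.52 and a log2 difference of 0.60 (SE 0.0787).

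Its neighbour and nearest relative Gbp2b was barely measured. The values were 7.19, 2.95, 0 and 0.870 in Scr and 8.77, 7.83, 6.84 and 6.98 in siCasp8, which correspond to between 0 and 10.0 reads per library. The siCasp8 libraries were alike, whereas Scr replicate 1 lay among them and the other Scr libraries below, so the groups overlapped. With a mean of 5.18 over the 8 libraries it fell under the filter, and its means were 2.75 ± 3.21 and 7.60 ± 0.890 (SD, n = 4 each).

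Gbp3 and Gbp5 were both low, and both were higher in siCasp8. Gbp3 stood at 43.3, 47.4, 52.4 and 28.2 in Scr and at 69.8, 71.6, 65.9 and 62.3 in siCasp8, with means of 42.8 ± 10.4 and 67.4 ± 4.15 (SD, n = 4 each). Gbp5, whose product has been linked to activation of the NLRP3 inflammasome, stood at 29.6, 24.3, 31.02 and 24.2 in Scr and at 47.3, 40.3, 37.0 and 43.5 in siCasp8, with means of 27.3 ± 3.57 and 42.0 ± 4.41 (SD, n = 4 each). In neither gene did the groups overlap, but the gap between the nearest libraries was small for Gbp5 and the low Scr replicate 4 widened the Scr spread of Gbp3. The log2 differences were 0.68 (SE 0.199) for Gbp3 and 0.61 (SE 0.193) for Gbp5, both with a larger standard error than Gbp7. Gbp5 was no longer among the called genes without Scr replicate 4 (0.56), siCasp8 replicate 1 (0.55), siCasp8 replicate 2 (0.63) or siCasp8 replicate 4 (0.59).

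On chromosome 5, Gbp6 and Gbp8 were higher in siCasp8 and Gbp9, Gbp4 and Gbp10 overlapped. Gbp6 stood at 212, 226, 234 and 242 in Scr and at 303, 354, 376 and 338 in siCasp8. Its means were 229 ± 12.8 and 343 ± 30.7 (SD, n = 4 each), at a log2 difference of 0.58 (SE 0.0894). Gbp8 stood at 69.7, 51.9, 74.0 and 52.2 in Scr and at 84.1, 104, 101 and 94.9 in siCasp8. No Scr library of either gene reached the lowest siCasp8 library. The Gbp8 means were 62.0 ± 11.6 and 96.2 ± 9.01 (SD, n = 4 each), with a log2 difference of 0.64 (SE 0.161).

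Gbp9 was by far the most abundant member and showed no separation. Its values were 2104, 2216, 2524 and 2414 in Scr and 2093, 2333, 2473 and 2169 in siCasp8. Both groups covered almost the same range, with means of 2314 ± 189.5 and 2267 ± 170.0 (SD, n = 4 each) and a log2 difference of -0.03 (SE 0.0659). The sign of that small difference turned with the upper-quartile rescaling, to 0.07, and without Scr replicate 3 or siCasp8 replicate 1, to 0.01 in each case. Gbp4, whose annotated span overlaps that of Gbp9, stood at 102, 121, 123 and 115 in Scr and at 111, 151, 138 and 114 in siCasp8. The siCasp8 replicates 2 and 3 were above all Scr libraries and the replicates 1 and 4 among them, with means of 115 ± 9.65 and 129 ± 19.3 and a log2 difference of 0.15 (SE 0.133). Leaving out siCasp8 replicate 2 took that difference to 0.07, Scr replicate 1 to 0.09 and siCasp8 replicate 1 to 0.21.

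Gbp10 was the least reproducible member above the filter. It stood at 31.1, 18.5, 80.4 and 29.4 in Scr and at 53.5, 35.01, 75.6 and 44.02 in siCasp8. The highest of all 8 values was in Scr replicate 3, and the other 3 Scr libraries lay below every siCasp8 library. The means were 39.9 ± 27.6 and 52.0 ± 17.4 (SD, n = 4 each), with a log2 difference of 0.53 (SE 0.379). Single libraries moved it in both directions: it was 0.93 without Scr replicate 3, which placed Gbp10 among the called genes, 0.25 without Scr replicate 2 and 0.33 without siCasp8 replicate 3.

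**Figure D2:**
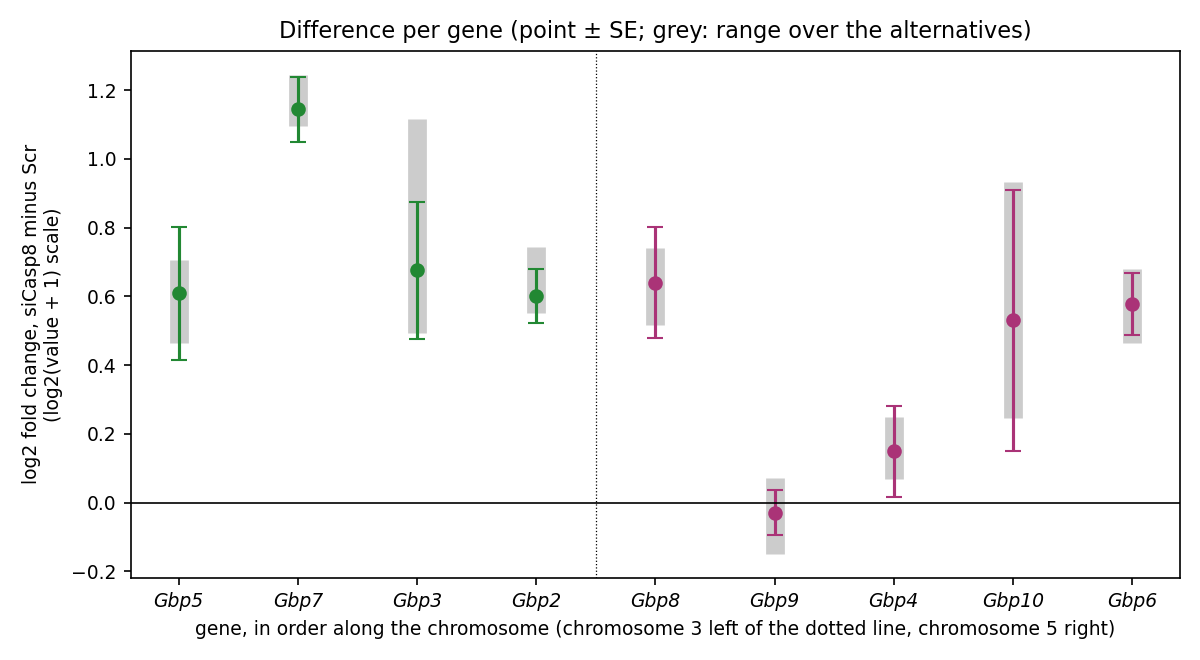
Difference siCasp8 minus Scr on the log2(value + 1) scale for the 9 genes above the filter, in order along chromosome 3 (left) and chromosome 5 (right), with the standard error from the limma fit over 14154 genes as a thin bar and the range over the alternative settings in grey. Gbp7 lies at 1.14 and Gbp9 at -0.03, Gbp10 has the widest error bar, and Gbp9 is the one gene whose grey range crosses 0.

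How far each row can be told from its relatives was read from the GENCODE transcripts of GRCm38. The measure was the share of a gene's 31-base words that also occur in another of the 10 genes. The share was 84.5% for Gbp10 and 56.6% for Gbp6, whose coding sequences are 98.4% identical. It was 28.2% for Gbp8, 17.1% for Gbp9 and 12.1% for Gbp4, and at most 5.64% for the 5 chromosome 3 genes. Outside these 10 genes, Gbp7 shared 11.4% of its words with other genes, 10.8% with the predicted gene Gm43802. Gbp8 shared 18.8% of its words with genes outside the 10, 15.5% with Gbp11. The chromosome 3 rows therefore rested mostly on words that no relative shares, whereas Gbp6 and Gbp10 drew on a common pool. Gm43302, the predicted gene of the chromosome 5 cluster, held 67.8% of the words of Gbp6 and 76.7% of those of Gbp10, and its own row overlapped between the groups (190.1 ± 15.8 and 219 ± 34.8, SD, n = 4 each).

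**Figure D3:**
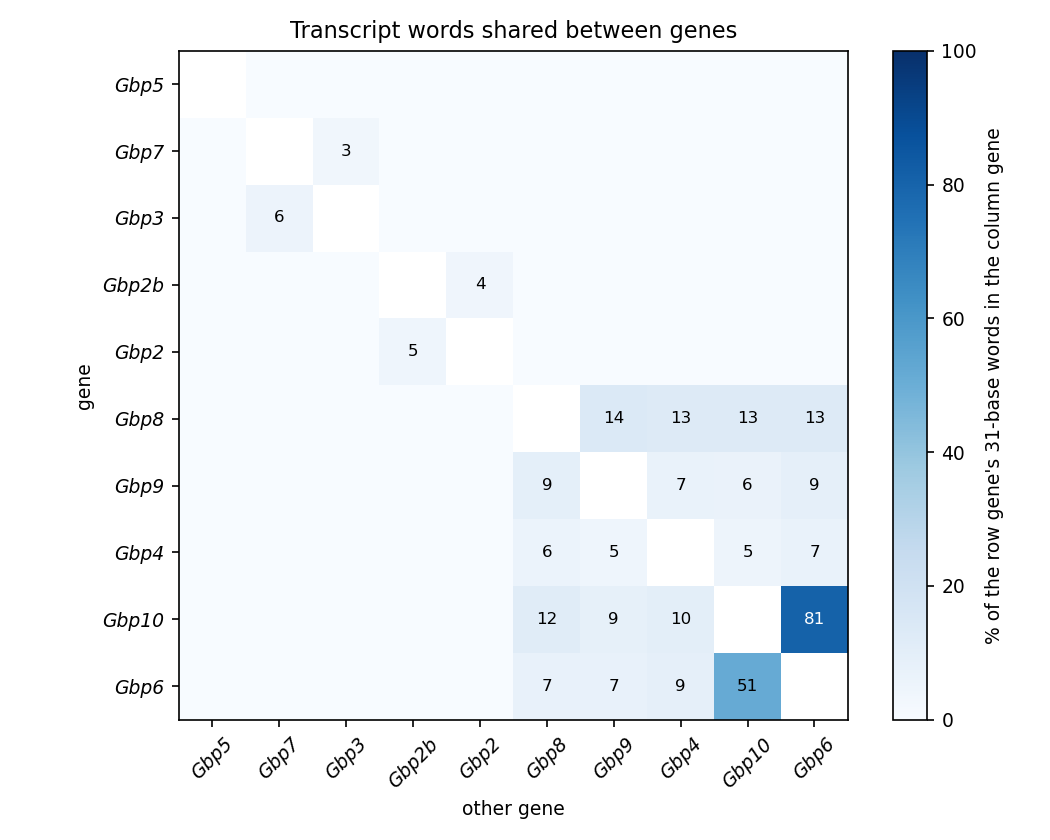
Share of the 31-base words of each gene's transcripts (rows) that also occur in transcripts of each other gene (columns), in percent, with the larger shares printed. Gbp6 and Gbp10 share most, and the chromosome 3 genes share little with other members. Genes outside this set, Gbp11 among them, are not drawn.

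Because the division of reads between Gbp6 and Gbp10 is an estimate, their values were also added. Gm43302 was not added; it stood at 167, 195, 196 and 203 in Scr and at 254, 241, 178 and 204 in siCasp8. The division of reads with Gm43302 therefore remains an estimate within the sum. The sum was 244, 245, 315 and 272 in Scr and 357, 389, 452 and 382 in siCasp8. No Scr library reached the lowest siCasp8 library, and the means were 269 ± 33.4 and 395 ± 40.3 (SD, n = 4 each), a log2 ratio of 0.55. The part of the sum assigned to Gbp10 was 12.8%, 7.58%, 25.5% and 10.8% in Scr and 14.99%, 8.99%, 16.7% and 11.5% in siCasp8. It was highest in replicate 3 and lowest in replicate 2 of each group.

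Across the family, coding identity ran from 65.8% to 98.4% over the 45 pairs. The median was 86.5% for the 20 pairs on one chromosome and 68.6% for the 25 pairs on different chromosomes. After Gbp6 and Gbp10, Gbp4 and Gbp8 were close at 92.9%. Of that pair, Gbp8 was separated between the groups and Gbp4 was not; whether the genes differ in this was not tested.

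Per kilobase of the longest transcript, Gbp9 stood first in Scr at 459 ± 37.6 normalized units per kb, followed by Gbp2 at 123 ± 10.8 and Gbp6 at 53.9 ± 3.02. Gbp4 (25.4 ± 2.13), Gbp7 (20.54 ± 0.676), Gbp8 (18.3 ± 3.42), Gbp3 (15.97 ± 3.89) and Gbp10 (11.3 ± 7.82) followed. The last places were those of Gbp5 (7.26 ± 0.951) and Gbp2b (0.975 ± 1.14, all SD, n = 4). The ranges of neighbours from Gbp7 down to Gbp5 overlapped, so their order in Scr is not resolved. In siCasp8 the order of the top 3 was unchanged, with Gbp9 at 449.5 ± 33.7, Gbp2 at 186 ± 5.49 and Gbp6 at 80.8 ± 7.24. Gbp7 passed Gbp4 to the fourth place, at 45.7 ± 3.29 against 28.3 ± 4.25 per kb. These places depend on the transcript length used. With the median length of each gene's coding transcripts, 5 of the 10 genes kept their place in Scr, and Gbp4 stood above Gbp7 in both groups (153 ± 12.8 against 28.4 ± 0.936 per kb in Scr, 171 ± 25.7 against 63.3 ± 4.55 in siCasp8). Gbp4 then took place 2 in Scr and place 3 in siCasp8, so the top 3 changed too. That length was 752 bases for Gbp4, shorter than its coding sequence of 1893 bases, so its places by that length are doubtful. For Gbp3 it was 1639 against 1860 coding bases.

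The summed level per kb was made up chiefly of Gbp9, whose share was 62.4 ± 2.11% in Scr and 51.5 ± 0.888% in siCasp8. The share of Gbp2 was 16.7 ± 1.62% and 21.3 ± 0.870%. For Gbp7 it was 2.80 ± 0.185% and 5.25 ± 0.405% (all SD, n = 4).

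**Figure D4:**
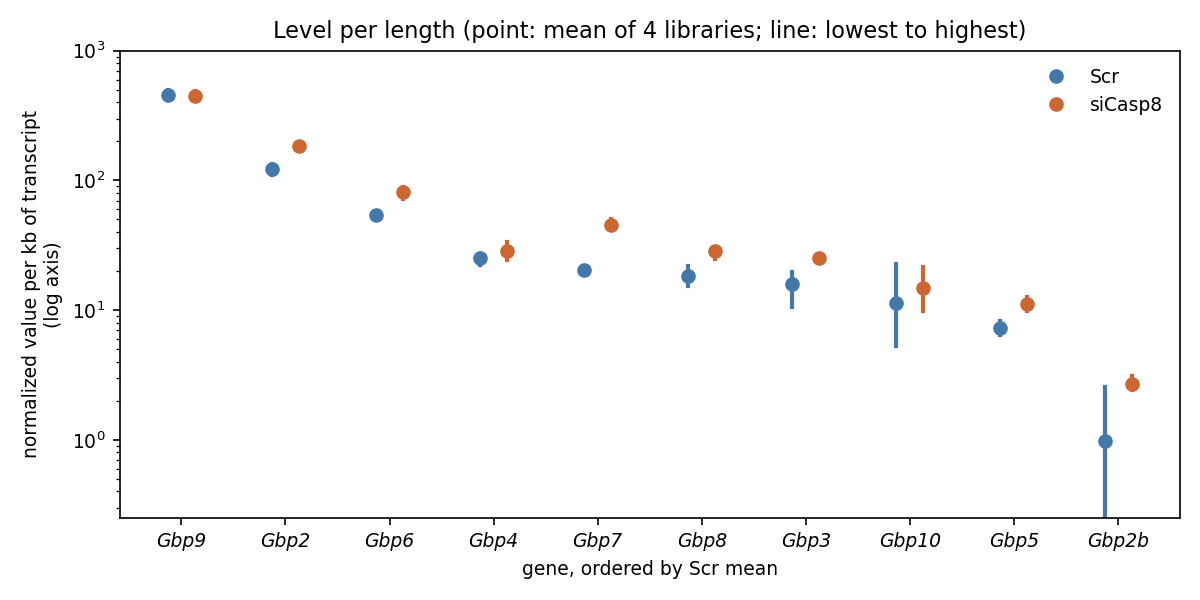
Normalized value per kb of the longest transcript (log axis) for the 10 genes in Scr and siCasp8, as mean with the range over the 4 libraries of a group; the lowest Scr value of Gbp2b is 0 and lies below the axis. Gbp9 lies above Gbp2 and Gbp6 in both groups, and with these lengths Gbp7 lies above Gbp4 in siCasp8 and below it in Scr.

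Within the groups, Scr replicate 3 was the highest Scr library for 7 of the 10 genes (Gbp3, Gbp4, Gbp5, Gbp7, Gbp8, Gbp9 and Gbp10). Scr replicate 4, the deepest control at 51.8 M reads, was the lowest for 4. In siCasp8 the replicates 2 and 3 were each highest for 4 genes and replicate 4 for none. Depth differed between the groups. The siCasp8 libraries nearest in depth to Scr replicate 4 were replicates 1 (50.5 M) and 3 (52.0 M). In that order Gbp7 stood at 109.8, 249.1 and 244.4, Gbp2 at 277, 465 and 478, and Gbp6 at 242, 303 and 376. Gbp4 stood at 115, 111 and 138 and Gbp9 at 2414, 2093 and 2473. With estimated depth as a covariate the log2 differences were 1.18 for Gbp7, 1.115 for Gbp3, 0.74 for Gbp2, 0.72 for Gbp8, 0.70 for Gbp5 and 0.46 for Gbp6. In that fit 4 of the 9 tested members were called higher. Over all 14154 tested genes 1289 were called higher and 1475 lower, together 2764 against 5689 without that covariate. The part of depth in these values was not tested beyond that fit.

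The genes around the clusters gave a position-matched background. Of the 20 nearest protein-coding genes, 5 on each side of each cluster, 15 were tested, 6 were called higher and 3 lower, beside 19.4% higher and 20.8% lower of all tested genes. They lay 31.4 kb (Abcg3) to 2784 kb (Stpg2) from their cluster, and the farthest tested gene, Hs2st1, lay 1792 kb away. On chromosome 3 the nearest gene to the right, Kyat3, an aminotransferase gene 63.0 kb from the cluster, was higher in siCasp8 (331 ± 63.5 and 474 ± 49.2, log2 difference 0.53, limma adjusted p = 0.00554). The nearest to the left, Pdlim5, 98.3 kb away, was not called (log2 difference -0.04), nor was Gtf2b to the right of Kyat3 (0.01). The next 2 genes on the left were low and rose by more than Gbp7 differed: Bmpr1b from 9.14 ± 3.83 to 40.9 ± 5.396 (2.12, limma adjusted p = 0.000147) and Unc5c from 40.7 ± 25.9 to 89.2 ± 8.28 (1.29, 0.00683). On chromosome 5 the nearest tested gene to the right, Lrrc8b, was not called (-0.08) and the next, Lrrc8c, was lower (-0.50, limma adjusted p = 0.0132). Left of that cluster Pkd2 (0.20, limma adjusted p = 0.00408) and Spp1 (0.21, 0.00122) were higher. Right of the chromosome 3 cluster Lmo4 was higher (0.39, limma adjusted p = 1.44e-05). Further genes on that side, Pkn2 (-0.12, 0.0396) and Hs2st1 (-0.21, 0.0225), were lower. With depth as a covariate Bmpr1b and Lmo4 were still called. Kyat3 (limma adjusted p = 0.567), Unc5c (0.309) and Lrrc8c (0.0939) were not. Nor were Pkd2 (0.340), Spp1 (0.0777), Pkn2 (0.2195) and Hs2st1 (0.214). The call of Pkn2 was also lost on leaving out any of 6 single libraries, and that of Hs2st1 any of 2.

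Other genes of the interferon pathways were counted in lists made for this purpose. Among 15 tested genes of interferon-gamma signalling, 2 were higher, 3 lower and 10 not called, with a median difference of -0.0034. The receptor chain Ifngr1 fell (-0.19) and its partner Ifngr2 rose (0.27). The phosphatase gene Ptpn11 fell (-0.25) and the related Ptpn6, which restrains cytokine signalling, rose (0.48). Irf1, a main activator of Gbp genes, was not called, at 2968 ± 190.0 and 2957 ± 93.9, and neither were the kinases Jak1 (-0.05) and Jak2 (0.09). With depth as a covariate Ptpn11 was still called, and Ifngr1 (limma adjusted p = 0.104), Ifngr2 (0.0608) and Ptpn6 (0.0891) were not. The fall of Ifngr1 was also not called under the upper-quartile rescaling (limma adjusted p = 0.091). A list of 9 interferon genes and the interleukin-12 subunit genes Il12a and Il12b had no gene above the filter. Of these 11 genes 8 were listed at 0 in every library, Ifng, Ifnb1 and Il12a among them, and the 11 summed to 2.61 to 7.19 normalized units in Scr and 1.69 to 4.41 in siCasp8.

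The immunity-related GTPases are a second family induced by interferon-gamma that acts on the same vacuoles. Of 8 tested, Irgm2 rose (0.25), Irgm1 (-0.20) and Irgq (-0.16) fell and 5 were not called. Igtp had a difference of 0.17 (limma adjusted p = 0.0739), and Ifi47 one of 0.06. Under the upper-quartile rescaling 2 of the 8 were higher and none lower, so the falls of Irgm1 (limma adjusted p = 0.0577) and Irgq depend on the scaling. With depth as a covariate, 1 was lower and none higher. The median difference of these 8 was 0.02.

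Of 7 tested chemokine and adhesion genes that interferon-gamma induces, 4 rose, 1 fell and 2 were not called, with a median difference of 0.76. Cxcl9 rose from 53.0 ± 20.3 to 154 ± 35.02 (1.58), Cxcl11 from 89.6 ± 12.9 to 194 ± 15.9 (1.12) and Cxcl10 from 97.8 ± 11.3 to 166 ± 7.74 (0.76). These encode ligands of the receptor CXCR3. The adhesion gene Vcam1 rose from 5084 ± 185 to 9434 ± 432 (0.89), and Cd274, which encodes PD-L1, fell (-0.27). The 4 rises were called under all alternatives tried, while the fall of Cd274 was not called with depth as a covariate (limma adjusted p = 0.123) or under the upper-quartile rescaling (0.191). It was also lost without Scr replicate 2 or 4 or siCasp8 replicate 2 or 3 (0.0553 to 0.0914).

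Type I interferon response genes, 30 tested, were split into 11 higher, 3 lower and 16 not called, with a median of 0.17. The kinase gene Tyk2 (0.37) and Parp9 (0.39) rose, and the antiviral genes Ifit3 (-0.97) and Ifit2 (-0.55) fell. Of 14 genes that sense foreign RNA and DNA, 6 were higher and 1 lower, with a median of 0.15: the sensors Tlr3 (0.38) and Ifih1 (0.41) rose and Cgas (-0.78) fell. Of 13 antigen presentation genes, 4 were higher and 3 lower, with a median of 0.03: Tapbp (0.34) and Tapbpl (0.26), which help load peptides, rose, and H2-K1 (-0.30) and B2m (-0.14), which form the presenting molecule, fell. With depth as a covariate the counts in these 3 lists were 6 higher and 3 lower, 1 higher and 1 lower, and 3 higher and 0 lower. Without siCasp8 replicate 4 the sensing list had 3 higher. Without Scr replicate 2, siCasp8 replicate 1 or siCasp8 replicate 4 the antigen presentation list had 1 lower, B2m being lost (limma adjusted p 0.0551 to 0.0713). The call of B2m was also lost under the upper-quartile rescaling (limma adjusted p = 0.537).

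Lists of inflammasome genes, autophagy conjugation genes, other dynamin-family genes and lipid-attaching enzymes were counted next. Of 8 tested inflammasome genes, 4 were higher and none lower, with a median of 0.29. Gsdmd, which encodes the pore-forming protein of pyroptosis, rose from 4327 ± 55.1 to 5317 ± 136 (0.30), and Casp12 (0.43), Aim2 (1.04) and Naip2 (0.14) rose. Casp4, the sensor of bacterial lipopolysaccharide in the cytosol, was not called (64.0 ± 9.54 and 76.4 ± 15.3), and Casp1 and Nlrp3 were under the filter in these cells. With depth as a covariate only Gsdmd of the 4 was called. Aim2 was not called without Scr replicate 2 or 3 or siCasp8 replicate 2, 3 or 4 (limma adjusted p 0.0511 to 0.103), nor Naip2 without Scr replicate 1, 2 or 3 or siCasp8 replicate 1, 2 or 4 (0.0564 to 0.119). The list's count of higher genes was 2 without Scr replicate 2, siCasp8 replicate 2 or siCasp8 replicate 4. Of 12 autophagy conjugation genes that steer these GTPases to vacuoles, 4 were higher and 1 lower, with Gabarapl1 (0.54) and the adaptor Sqstm1 (0.24) rising and Map1lc3a (-0.15) falling. The call of Map1lc3a was lost on leaving out any library but Scr replicate 3 (limma adjusted p 0.0722 to 0.112). Of 13 other genes of the dynamin family to which these GTPases belong, 2 were higher (Atl1, 0.83; Mfn1, 0.17) and 4 lower (among them Atl3, -0.53, and Ehd4, -0.34). Of 8 genes for the enzymes that attach and process the lipid, only Rce1 was called (0.19). With depth as a covariate Atl3 was still called, and Atl1 (limma adjusted p = 0.0771), Mfn1 (0.0681), Ehd4 (0.068) and Rce1 (0.247) were not.

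**Figure D5:**
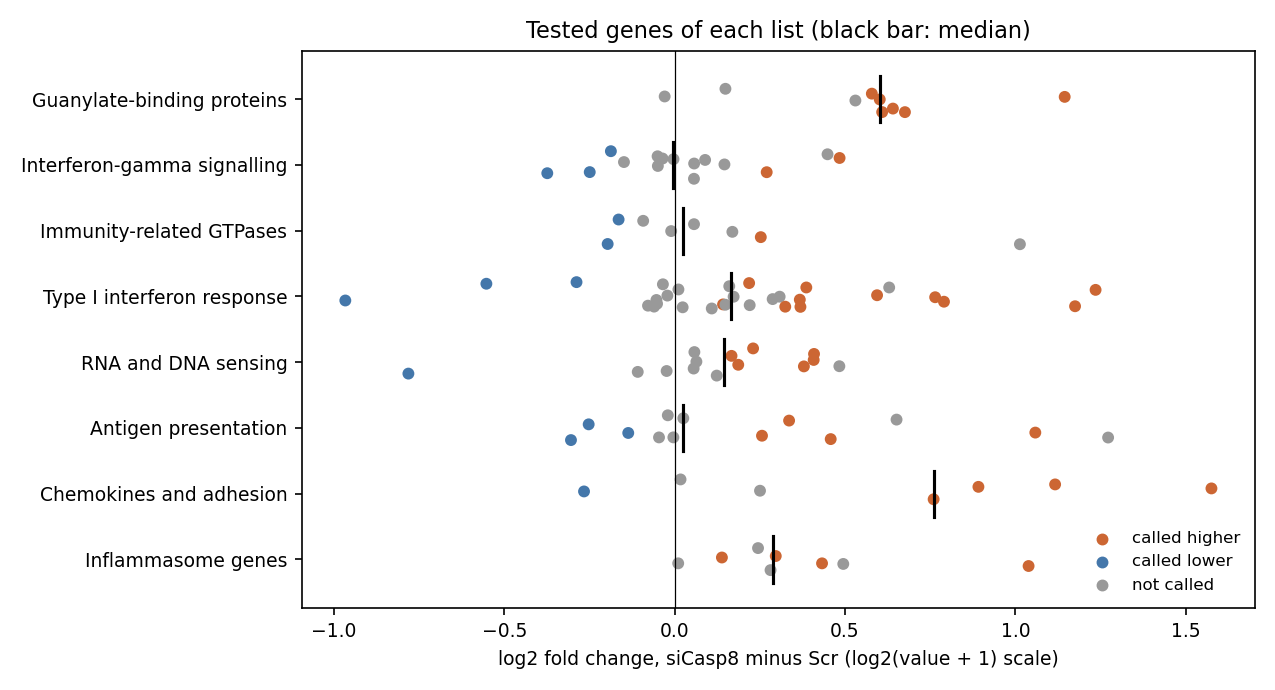
Difference siCasp8 minus Scr on the log2(value + 1) scale for every tested gene of the Gbp set and of each list, one row per list, with called genes coloured and the median as a black bar. The Gbp genes run from -0.03 to 1.14, called genes lie on both sides of 0 in the 6 lists from interferon-gamma signalling to chemokines and adhesion, and no inflammasome gene was called lower.

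Markers of the line and of other cell types were read in the same libraries. Of 11 tested hepatocyte markers 5 were higher and 2 lower. Alb stood at 86.4 ± 10.7 in Scr and 3626 ± 248.9 in siCasp8 and Ttr at 2495 ± 176 and 6852 ± 178, while Krt8 (-0.31) and Apob (-0.25) fell. Under the upper-quartile rescaling Apob was not called (limma adjusted p = 0.0849). Of 12 macrophage markers 5 were listed at 0 in every library (Adgre1, Tyrobp, Clec4f, Marco and C1qa). The 12 summed to 2840 to 3057 in Scr and 2207 to 2370 in siCasp8, with Csf1r (-0.72) and Cd14 (-0.36) lower and none higher. Of 11 T and NK cell markers 3 were listed at 0, and the sums were 46.5 to 85.6 and 56.0 to 70.8. For 8 endothelial markers, 2 of them listed at 0, the sums were 220.2 to 561 and 211 to 335. Of 8 stellate cell and fibroblast markers 2 were tested: Des rose from 12.1 ± 8.24 to 45.3 ± 22.6 (1.94, limma adjusted p = 0.00518) and Col1a1 fell from 117 ± 22.2 to 77.9 ± 23.9 (-0.62, 0.0460). The sums over the 8 were 119.9 to 176 and 99.6 to 180.1. The call of Col1a1 was lost on leaving out any library but siCasp8 replicate 1 (limma adjusted p 0.0502 to 0.114), with a difference of -0.39 without siCasp8 replicate 3, and the call of Des with depth as a covariate (0.0552). Of 6 tested cholangiocyte markers 2 were higher (Spp1, 0.21, and Sox9, 0.15) and 3 lower, among them Krt19 (-0.15). Krt19 was not called without siCasp8 replicate 3 (limma adjusted p = 0.0538) or under the upper-quartile rescaling (0.420). The cholangiocyte sums were 114618 to 123301 in Scr and 129229 to 136579 in siCasp8. The part of other cell types in the Gbp values was not tested.

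Genes whose values over the 8 libraries lay nearest to those of Gbp2 were found by the mean absolute difference of centred log2 values. Among the nearest were Arl14 (0.0314), Cmbl (0.0413), Clu (0.0449) and Cyp4v3 (0.0463). Each was higher in siCasp8, for example Arl14 at 82.4 and 126 and Cmbl at 867 and 1254. The distance spans both groups, so genes near Gbp2 had to share its difference, and nothing is read from that. Among the other family members Gbp6 was nearest to Gbp2, at place 170 of the ranked genes, followed by Gbp3 at 348, Gbp5 at 695 and Gbp8 at 891. Gbp7, with its wider difference, was at 4395, and Gbp9 at 6643. These places reflect in part the same difference between the groups by which the genes were chosen.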

How the data were processed

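The 8 libraries were assigned to Scr or siCasp8 from their titles in the labels. The table was deposited by the authors as a normalized signal per gene symbol which, going by its name, holds kallisto estimates normalized with DESeq2. Builds GRCh38 and GRCm38, bcl2fastq 2.19, DESeq2, sleuth and kallisto 0.44.0 are listed in the submitters' processing notes, with no role or order. For the annotation and the summing of transcripts to genes, the method is not given in the sources used here. Of 34945 named genes, 12681 had no value above 0, and a row with no symbol, at most 0.0631% of a library, was left out.

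Depth was estimated from the most common low value, taken as 1 read. Only 63.0% to 75.0% of low values lay within 0.1 read of a whole number, so count models were not used. In R 4.3.3, limma 3.58.1 was fitted to log2(value + 1) for the 14154 genes with a mean of at least 10, two-sided, with a variance trend, no covariate and Benjamini-Hochberg adjustment. A call is an adjusted p under 0.05. The scale understates differences of low genes. The fit was tested on simulated data. The series' text calls the 4 samples of a group biological replicates, and the p-values measure the spread between these cultures only. Same-numbered samples deviated together only weakly (correlations 0.0785, 0.0442, 0.169 and 0.0554), so numbers were not taken as pairs.

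Positions and 31-base words came from GENCODE M21 for GRCm38 and promoters from RefSeq. Coding identity was computed on nucleotides. The members and lists were chosen with earlier results of these data known. The genes named are the 10 members, Casp8, the 2 called genes of smallest adjusted p in each direction per list, all called genes of 4 lists (interferon-gamma signalling, immunity-related GTPases, inflammasome, chemokines and adhesion), the 5 most like Gbp2, and markers. Some genes that this rule gives are not reported here, and counts include them. Irf1, Jak1, Jak2, Igtp, Ifi47, Casp1, Casp4, Nlrp3, Ifng and Ifnb1 were named outside that rule, after their values were seen. So were Gbp11, Gm43302, Gm43802, Il12a, Il12b and the neighbours of the clusters. Alternatives were another pseudocount, filter, scaling or variance prior, depth as a covariate, a replicate block, and leaving out each library.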

Additional observations from a re-analysis of the deposited data

Results flagged for a closer look

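Gbp7 in siCasp8 replicate 2 (284 normalized units) stood apart from the other 3 siCasp8 libraries. The gap to the nearest of them was 0.881 of the group's range, above Dixon's critical value for 4 samples. Over the 22 groups of 4 examined, chance alone would give about 1 such result in 20 groups. Leaving out any one library kept the log2 difference of Gbp7 between 1.095 and 1.167.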

How the results depend on the processing

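Of 151 values of the 9 tested Gbp genes under the alternatives, 141 stayed on their side of the threshold (Gbp9, never called, changed sign), 9 lost the call, 1 gained it and none was called in the opposite direction. The calls lost were those of Gbp3 under quantile normalization, Gbp8 with depth as a covariate, and Gbp5 with no filter, quantile normalization, depth and 4 single libraries left out. As these genes were chosen on this comparison, calls that were kept support nothing. The number of Gbp genes called higher was 4 to 6 over the settings and 5 to 7 on leaving out single libraries. With depth as a covariate 2764 genes were called, 1289 higher and 1475 lower, and the 7 pathway lists together gave 15 higher and 6 lower, against 32 and 13. The cause was not tested. Upper-quartile rescaling gave 4475 higher and 1665 lower genes and 7 lower in the lists. The replicate block gave 6020 genes and 6 Gbp genes; each library correlated best with its own number, a hint from the data and not from the design. Per-length order kept 5 of 10 places with median coding lengths. Leaving out single libraries gave 4799 to 5743 genes and 27 to 32 list genes higher. Depth limits Gbp2b, at 10.0 reads or fewer.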
